A study of Danio rerio with 7 samples.

Results

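Hox genes encode homeodomain transcription factors that give cells their position along the head-to-tail axis. They lie in clusters, and the order of the genes in a cluster follows the order in which they are used along the axis: low paralogue numbers (anterior genes) in the hindbrain and front of the trunk, high numbers (posterior genes) in the tail. Zebrafish carry duplicated clusters, marked by a final a or b in the gene name, and blood and vessel cells of vertebrates also express Hox genes. The accessibility of chromatin around these genes was described here in endothelial and other cells of the zebrafish embryo. The members were every differential ATAC-seq peak whose nearest RefSeq promoter belongs to a gene with a symbol starting with *hoxa*, *hoxb*, *hoxc* or *hoxd* and a digit. These were 62 of 44025 peaks, assigned to 27 of the 48 Hox genes with coordinates in the deposited gene table, which lists 14612 genes in all. Over all peaks, 9031 gene symbols had at least 1 peak, and these symbols were not matched to the listed genes.

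ATAC-seq marks open chromatin through adapters that a transposase inserts into DNA free of nucleosomes. Wild-type Tg(kdrl:GFP)s843 embryos, in which the *kdrl* promoter drives GFP in the endothelium, were dissociated at 26 to 27 hpf. For each library, 40000 to 50000 cells were sorted as *kdrl*:GFP+ cells (the bright fraction) or *kdrl*:GFP- cells, a mixture of other tissues. By the paper's gates, cells with dim GFP belonged to neither population. The labels give 3 *kdrl*:GFP+ libraries, 3 *kdrl*:GFP- libraries and 1 genomic DNA control from 30000 cells at 28 to 30 hpf. The paper describes a comparison of 2 *kdrl*:GFP+ with 4 *kdrl*:GFP- libraries, after 2 outlying *kdrl*:GFP+ replicates were removed. Which libraries entered it, and whether a removed replicate is among those labelled, is not given in the sources used here. The labels call the control tagmented whole-embryo DNA and the methods call it DNA of *kdrl*+ cells without transposase.

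Each peak has 1 concentration for each population, the log2 of the authors' mean normalised reads over its libraries. No value belongs to a single library, so the values below have no SD and no test over libraries, and the depth behind them is unknown. The log2 difference is the *kdrl*:GFP+ concentration minus the *kdrl*:GFP- concentration, and a positive value means more open in *kdrl*:GFP+ cells. The table holds only peaks that passed the authors' comparison, so there are no values near 0: the smallest absolute log2 difference was 0.76 over all peaks and 0.80 over Hox peaks. In sorted populations, more cells with an open site and a site more open in each cell cannot be told apart. Of 126 peaks of endothelial markers, 109 were higher in *kdrl*:GFP+ cells, against 17 of 197 neural, 7 of 51 skeletal muscle and 1 of 24 neural crest marker peaks. Markers of some other tissues were also higher there, with 11 of 11 myeloid, 7 of 11 erythroid and 8 of 11 epidermal peaks, and their part in the Hox values was not tested.

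Hox peaks divided between the populations. In *kdrl*:GFP+ cells, 36 of the 62 peaks were more open and 26 less open, a share of 58.1% for the higher ones (95% Wilson interval 45.7 to 69.5, counting error only, with peaks of a cluster not independent), beside 44.7% over all peaks. The median log2 difference was 1.01, beside -1.19 over all peaks, but with no values near 0 a median of mixed directions moves easily across the gap, and its order-statistic interval ran from -1.23 to 1.2. Differences were modest. The median absolute log2 difference was 1.57, beside 2.24 over all peaks, and 41 Hox peaks (66.1%) differed by less than 4-fold, beside 41.8% of all peaks. An 8-fold difference or more was reached by 2 Hox peaks in the higher direction and 3 in the lower one, where 17.8% and 13.3% of all peaks did so. Hox peaks resembled others in strength and width: the median of the larger of both concentrations was 6.76, beside 6.72 over all peaks, and the median width was 504.5 bp, beside 502 bp.

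**Figure D1:**
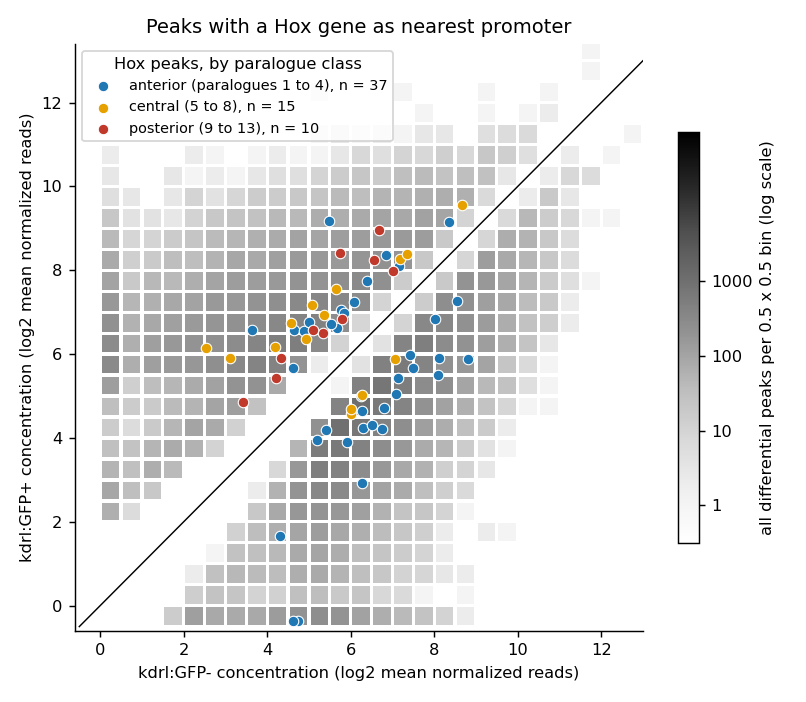
Concentration of each of the 62 Hox peaks in *kdrl*:GFP- cells (horizontal axis) and *kdrl*:GFP+ cells (vertical axis), both as log2 of mean normalised reads, coloured by paralogue class over grey bins that count all 44025 differential peaks. All 10 posterior peaks lie above the line of equal concentration, and 2 anterior peaks lie on the lowest *kdrl*:GFP+ concentration of the table, -0.36.

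The share of higher peaks differed between paralogue classes. Posterior genes (paralogues 9 to 13) had 10 peaks, all 10 higher in *kdrl*:GFP+ cells, with a median log2 difference of 1.46 and a range of 0.97 to 2.68. Central genes (5 to 8) had 11 of 15 peaks higher and a median of 1.41. Anterior genes (1 to 4) had 15 of 37 peaks higher (40.5%) and a median of -1.24, close to the 44.7% and -1.19 over all peaks. With paralogue 4 counted as central, 60.9% of central and 41.4% of anterior peaks were higher. Over the 27 genes, the median log2 difference per gene correlated with the paralogue number with Spearman's rho = 0.65 and Pearson's r = 0.61. Restricted to peaks within 5 kb of the promoter, rho was 0.52 over 24 genes. These are descriptions across genes of shared clusters and libraries, and genes are not independent replicates. Each gene counted once, whatever its number of peaks. For genes with peaks in both directions the median could fall where no peak lies, as at *hoxa5a* (-0.16) and *hoxa1a* (0.15). The *hoxb3a* gene was counted as paralogue 3, although its peak lies among central genes. A single gene weighed on the anterior class: without *hoxc1a*, 15 of 31 anterior peaks (48.4%) were higher.

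**Figure D2:**
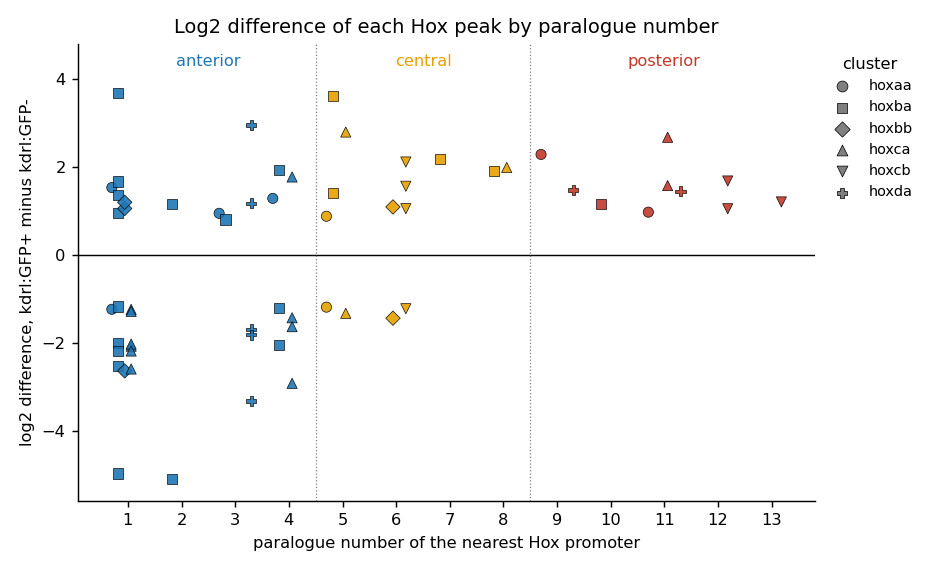
Log2 difference of each Hox peak (vertical axis, *kdrl*:GFP+ minus *kdrl*:GFP-) against the paralogue number of its nearest Hox promoter (horizontal axis), with 1 symbol per cluster. No peak of paralogues 9 to 13 lies below 0. Of the peaks of paralogues 1 to 4, 22 of 37 do, close to the share over all peaks (24358 of 44025).

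Among posterior genes, 8 of the 22 in the gene table had a peak, a smaller part than the 8 of 12 central and 11 of 14 anterior genes. The *hoxa9a* gene, whose mammalian counterpart acts in blood stem cells and endothelium, had a peak over its first bases (chr19:19215532-19216401, Zv9, as for all positions here). It had a mean of 499 normalised reads in *kdrl*:GFP+ cells against 102 in *kdrl*:GFP- cells, a log2 difference of 2.29. This was the second largest difference of the posterior class. The largest posterior difference was at *hoxc11a*, with 343 against 53.6 reads at a peak 0.50 kb inside the gene (chr23:36126330-36127527, log2 difference 2.68). A second *hoxc11a* peak 2.38 kb upstream had 60.3 against 20.2 reads (chr23:36123854-36124229, 1.58). Both *hoxc11a* peaks were thus higher.

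The *hoxa11a* gene, whose paralogue group patterns limbs and fins, had 253 against 129 reads over its start (chr19:19202806-19203783, 0.97), the smallest difference of the class. Inside *hoxb10a*, at chr3:23961971-23962463, reads were 90.7 against 40.7 (1.16). At the start of *hoxc13b*, in its first exon, they were 42.9 against 18.6 (chr11:2108741-2109179, 1.2). The hoxda cluster gave 2 posterior peaks of nearly equal difference. One lay beyond the end of *hoxd9a* (chr9:1952091-1952603, 95.2 against 34.1 reads, 1.48). The other lay in *hoxd11a* (chr9:1967441-1967780, 28.9 against 10.6 reads, 1.45). Upstream of *hoxc12b* lay the only posterior peaks more than 5 kb from a promoter, at 13.6 kb (chr11:2194393-2194799, 115 against 55.5 reads, 1.05) and 21.3 kb (chr11:2201874-2202653, 304 against 94.8 reads, 1.68). Both lie in intron 6 of another transcript, so *hoxc12b* is their nearest promoter and not the gene that holds them.

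Among central genes, 8 of 12 had a peak. The largest difference was beyond the end of *hoxb5a*, whose mouse counterpart acts in endothelial precursors and blood stem cells. There 2 peaks lay 557 bp apart. The nearer one had 81.6 against 30.6 reads (chr3:24002704-24003190, 1.41). The farther one had 70.8 against 5.75 (chr3:24003748-24004101, 3.62), the second largest positive difference of all Hox peaks. The neighbouring genes *hoxb7a* and *hoxb8a*, which pattern the trunk, each had 1 peak inside the gene and both were higher. For *hoxb7a* the reads were 108 against 23.7 (chr3:23985151-23985706, 2.19). For *hoxb8a* they were 188 against 49.8 (chr3:23980742-23981265, 1.91). *hoxc8a*, a further trunk gene, had 71.9 against 18.1 reads (chr23:36154725-36155022, 1.99).

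The strongest Hox peak of all lay at the promoter of *hoxa5a* (chr19:19224585-19225853), with 748 reads in the GFP+ and 407 in the GFP- population. Its log2 difference of 0.88 was small, so this promoter was open in both populations. A second *hoxa5a* peak, 2.44 kb from its start and beyond its end, went the other way (chr19:19227551-19228213, 58.8 against 134 reads, -1.19). In hoxbb, the start of *hoxb6b* was higher (chr12:28697818-28698631, 309 against 145 reads, 1.09) and a peak 2.84 kb upstream lower (chr12:28694999-28695503, 23.9 against 64.9 reads, -1.44).

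The *hoxc6b* gene had 4 peaks, 3 of them higher. Only the peak at its start is annotated to *hoxc6b*, and the others to introns of a transcript without a matched gene name. The *hoxc6b* start had 335 against 162 reads (chr11:2149487-2150757, 1.05). A peak 4.35 kb from the start, beyond the end, had 122 against 41.4 reads (chr11:2145685-2146111, 1.56). At 11.4 kb there were 145 against 33.6 reads (chr11:2138574-2139127, 2.11), but a peak only 631 bp away was lower (chr11:2139759-2140164, 32.8 against 76.8 reads, -1.23). The *hoxc5a* gene had the same arrangement beyond its end. One peak had 60.1 against 8.65 reads (chr23:36172936-36173424, 2.80), and another 526 bp away had 25.8 against 64.8 (chr23:36173951-36174368, -1.33).

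Among anterior genes, 11 of 14 had a peak, and both peaks at an anterior promoter were lower in *kdrl*:GFP+ cells. *hoxb1a*, which in the hindbrain specifies the fourth rhombomere, had a promoter peak with 115 reads in the GFP+ against 260 in the GFP- population (chr3:24059682-24060667, -1.18). The promoter of *hoxc1a* was also lower, with 153 against 373 reads (chr23:36228964-36230173, -1.29). *hoxc1a* was the only Hox gene with several peaks that were all lower: 6 of 6, between -1.24 and -2.60. The lowest was 15.6 kb from its start (chr23:36244935-36245522, 45.0 against 273 reads, -2.60). Next were the peaks at 33.7 kb (chr23:36262822-36263786, 60.5 against 276 reads, -2.19) and 2.96 kb upstream (chr23:36226467-36226914, 26.5 against 112 reads, -2.08).

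The hoxaa cluster ran differently, with 3 of its 4 anterior peaks higher. Upstream of *hoxa1a*, a hindbrain gene, reads were 330 against 114 (chr19:19248051-19249425, 1.53). A second *hoxa1a* peak, 36.3 kb away, was the most negative of this cluster (chr19:19287986-19288289, 15.5 against 36.6 reads, -1.24). Upstream of *hoxa3a*, a gene of the pharyngeal arches, reads were 98.0 against 50.9 (chr19:19238463-19238858, 0.94). Inside *hoxa4a* they were 132 against 54.2 (chr19:19233952-19234708, 1.28). In hoxbb, *hoxb1b* had 2 peaks higher and 1 lower, the largest at 5.23 kb (chr12:28717214-28717586, 105 against 46.0 reads, 1.2) and the most negative at 3.75 kb (chr12:28715802-28716034, 3.16 against 19.8 reads, -2.64).

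Anterior genes of hoxba and hoxca carried the most negative values within clusters. The most negative Hox peak lay 5.95 kb upstream of *hoxb2a*, in an exon of *hoxb3a* (chr3:24037186-24037703, -5.10). It had 26.8 reads in *kdrl*:GFP- cells, while its *kdrl*:GFP+ concentration was the lowest of the table, a value shared by 1450 peaks, so the size of the difference rests on that shared value. A further *hoxb2a* peak was higher (chr3:24032894-24033310, 126 against 56.9 reads, 1.15). *hoxb4a*, whose mammalian counterpart expands blood stem cells in culture, had 1 peak higher (chr3:24021036-24021379, 95.3 against 25.0 reads, 1.93) and 2 lower. One of the lower peaks was only 788 bp from it (chr3:24022168-24022558, 18.2 against 42.2 reads, -1.22). *hoxc4a* likewise had 1 of 4 higher, in an exon of *hoxc3a* (chr23:36196397-36196832, 109 against 31.8 reads, 1.77). Its most negative peak was strong in *kdrl*:GFP- cells, with 59.4 against 451 reads (chr23:36185401-36186608, -2.93). That was the largest *kdrl*:GFP- value of any Hox peak.

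A peak assigned to *hoxb3a* had 569 against 326 reads (chr3:23990964-23991985, 0.80). The transcript behind this assignment starts between *hoxb7a* and *hoxb6a*, and the peak lies there, among central genes, 2.20 kb into a gene that spans 23989275 to 24039323. Its anterior paralogue number therefore does not describe its position. Long transcripts of *hoxb3a* and *hoxc3a* also hold the peaks assigned to *hoxb5a*, *hoxb4a*, *hoxb2a*, *hoxc5a* and *hoxc4a*, so these lie in introns or exons of another Hox gene than the one with the nearest promoter.

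Along hoxca and hoxba the direction changed from the posterior to the anterior side. In hoxca, all 4 peaks from *hoxc11a* to the first *hoxc5a* peak were higher (1.58 to 2.80), and of the 11 peaks after it 1 was higher. These 11 include *hoxc1a* peaks beyond the end of the cluster, which for hoxba are counted apart. In hoxba, the 6 peaks from *hoxb10a* to *hoxb5a* were all higher (0.80 to 3.62), and of the 6 peaks from *hoxb4a* to *hoxb1a* inside the cluster 2 were higher. These dividing points were chosen after the values were seen, so the counts are a description. Beyond *hoxb1a*, 4 of 8 peaks were higher. They included the largest positive Hox difference, 139 kb from the *hoxb1a* start (chr3:24199320-24199882, 579 against 44.9 reads, 3.69), and the second peak at the lowest *kdrl*:GFP+ concentration, at 26.5 kb (chr3:24086540-24086771, 24.5 reads in *kdrl*:GFP- cells, -4.98). Also lower were the peaks at 37.0 kb (chr3:24096958-24097413, 18.5 against 107 reads, -2.53) and 112 kb (chr3:24172211-24172805, 19.9 against 91.0 reads, -2.19). At such distances the assignment to *hoxb1a* says only that no other annotated promoter was nearer.

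**Figure D3:**
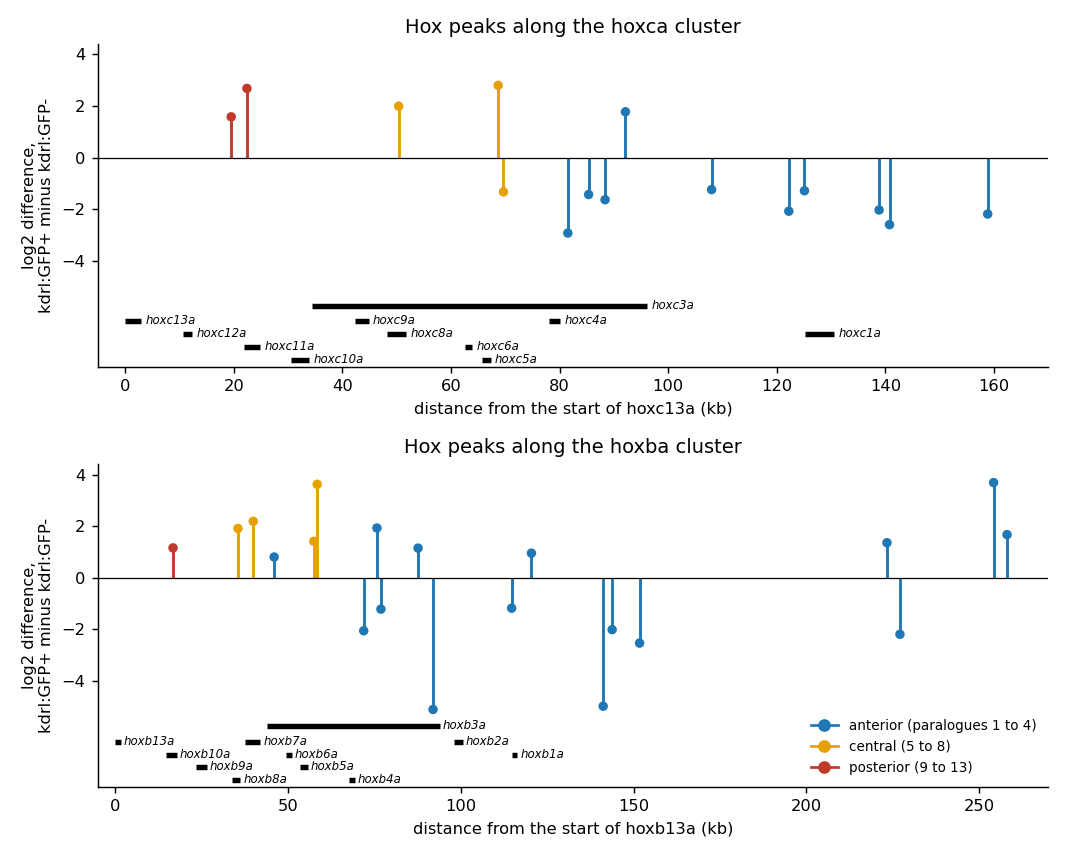
Log2 difference of each Hox peak (vertical axis, *kdrl*:GFP+ minus *kdrl*:GFP-) along hoxca and hoxba, by distance in kb from the start of *hoxc13a* or *hoxb13a*, coloured by the paralogue class of the nearest promoter, with black bars for the genes. Peaks on the side of the posterior genes are above 0 (4 of 4 in hoxca, 6 of 6 in hoxba). After them, 1 of 11 is above 0 in hoxca, counting *hoxc1a* peaks beyond the end of the cluster. In hoxba, 2 of 6 are above 0 inside the cluster and 4 of 8 beyond it. The dividing points were chosen after the values were seen, and peaks with a microRNA gene as nearest promoter are not shown.

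By cluster, 6 of 8 peaks were higher in hoxaa, 12 of 20 in hoxba, 3 of 5 in hoxbb, 5 of 15 in hoxca, 6 of 7 in hoxcb and 4 of 7 in hoxda. The share over all peaks, 44.7%, lay within the Wilson interval (counting error only) of each cluster with peaks except hoxcb (48.7 to 97.4). For hoxca, the cluster with the smallest share, the interval was 15.2 to 58.3. The hoxab cluster had no differential peak at any of its 5 genes. Both the posterior and the anterior class had peaks in hoxaa, hoxba, hoxca and hoxda. In that order, 2 of 2, 1 of 1, 2 of 2 and 2 of 2 posterior peaks were higher, beside 3 of 4, 7 of 15, 1 of 10 and 2 of 5 anterior ones. In hoxda the 5 anterior peaks were assigned to *hoxd3a*, a gene linked to vessel growth in mammals, and lay 33.8 to 77.8 kb from its start. The most negative had 7.65 against 77.1 reads (chr9:1895841-1896344, -3.33), and the most positive 95.9 against 12.3 (chr9:1853212-1853501, 2.96).

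Of the 27 genes with a peak, 15 had all their peaks higher, 1 had all lower and 11 had both. The 12 genes with a single peak were all among these 15, and a single peak cannot be mixed. The same split over all genes was not computed. No differential peak was assigned to *hoxa13a*, *hoxa13b*, *hoxa11b*, *hoxa10b*, *hoxa9b*, *hoxa2b*, *hoxb13a*, *hoxb9a*, *hoxb6a*, *hoxb8b*, *hoxb5b*, *hoxc13a*, *hoxc12a*, *hoxc10a*, *hoxc3a*, *hoxc9a*, *hoxc6a*, *hoxd4a*, *hoxd10a*, *hoxd12a* or *hoxd13a*. A peak is assigned to its nearest promoter, so a gene of this list can still hold differential peaks, as *hoxc3a* does. Since the table holds differential peaks alone, a gene without any may be open to a like degree in both populations or closed in both. It may also differ without having passed the authors' comparison.

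The share of higher peaks also differed by position relative to the promoter, which overlapped with paralogue class. Hox peaks lay close to promoters, at a median of 4.75 kb beside 41.8 kb over all peaks. Whether the close spacing of genes in the clusters accounts for this was not tested. Within 5 kb, 23 of 32 Hox peaks (71.9%) were higher, beside 48.1% of all peaks within 5 kb. Beyond 5 kb, 13 of 30 were higher (43.3%), beside 44.3%. Inside the clusters, between the first and last base of their Hox genes, 26 of 40 were higher (65.0%). Outside, 10 of 22 were higher (45.5%), beside 44.7% over all peaks. The classes were unevenly placed: 15 of 15 central and 8 of 10 posterior but 17 of 37 anterior peaks lay inside. Of the 17 anterior peaks inside, 7 were higher (41.2%), close to the 40.5% of all anterior peaks. Distance and paralogue class overlapped, since 8 of 10 posterior and 13 of 15 central but 11 of 37 anterior peaks lay within 5 kb. Within that distance, 8 of 8 posterior, 10 of 13 central and 5 of 11 anterior peaks (45.5%) were higher. Beyond it, 2 of 2 posterior, 1 of 2 central and 10 of 26 anterior peaks (38.5%) were higher. Within a class the share thus differed little or rests on few peaks, and distance and class were not tested apart.

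**Figure D4:**
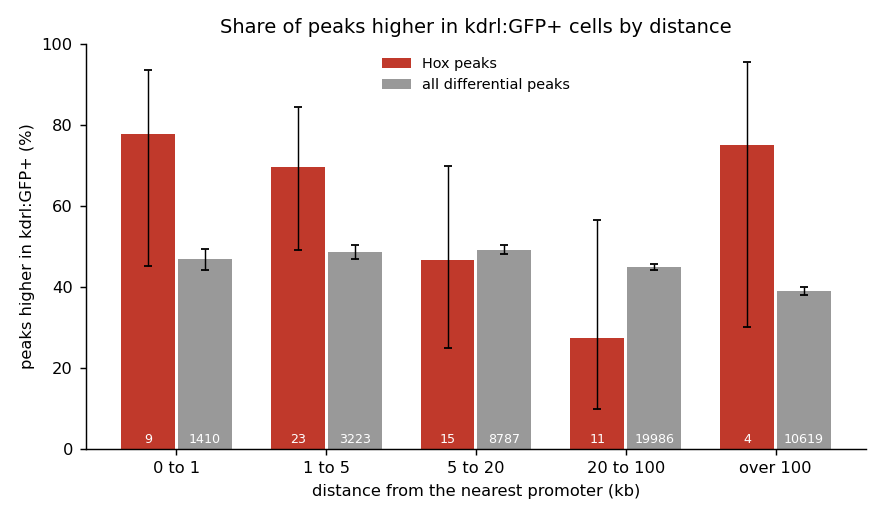
Share of peaks higher in *kdrl*:GFP+ cells (vertical axis, percent) by distance from the nearest promoter (horizontal axis, kb) for Hox peaks (red) and all differential peaks (grey); white numbers count peaks and lines are 95% Wilson intervals for counting error only. Among Hox peaks the share was 77.8% within 1 kb, 27.3% from 20 to 100 kb and 75.0% (3 of 4 peaks) beyond 100 kb, with wide intervals, and among all peaks it stayed between 39.0% and 49.2%.

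Exonic Hox peaks were mostly higher. Of 12 Hox peaks in exons, 11 were higher, and exonic peaks over the whole table were also mostly higher (68.4%). Exons held 19.4% of Hox peaks and 3.36% of all peaks. Among posterior peaks, the 5 in exons and the 5 elsewhere were all higher. In introns, 12 of 19 Hox peaks were higher (45.7% of all intronic peaks), and between genes 11 of 27 (42.9%). Of the 3 peaks annotated as promoters, *hoxa5a* was higher, and *hoxb1a* and *hoxc1a* were lower. Of the 9 peaks within 1 kb of a start, 7 were higher, beside 46.8% of all such peaks.

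Peaks of opposite direction lay side by side. Of 5 pairs of adjacent Hox peaks less than 1 kb apart, 3 had opposite directions (at *hoxc6b*, *hoxc5a* and *hoxb4a*) and 2 had the same direction (at *hoxb5a* and *hoxd3a*). Over the whole table, 260 of 2320 such pairs (11.2%) were opposite.

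Hox proteins bind DNA together with TALE homeodomain cofactors of the Pbx, Meis and Pknox families, and most peaks of these genes were lower, as were most peaks of the table. Of 188 peaks at 11 of the 14 listed genes, 50 (26.6%) were higher, beside 44.7% over all peaks, and the median log2 difference was -1.66, beside -1.19. *pbx4*, the main Pbx of the early zebrafish embryo, had 0 of 7 peaks higher, and *meis3* had 0 of 4. The most peaks belonged to *meis1b*, with 11 of 47 higher. Its largest difference was -6.26. Next in number of peaks were *meis2a* (7 of 26 higher, largest difference -6.98) and *pbx3b* (8 of 26, 4.27). The *pbx2* gene differed from the other Pbx genes in having 8 of 14 peaks higher. The largest differences of *pbx1a* (3 of 16, -6.02), *meis2b* (3 of 15, -4.37) and *pknox2* (7 of 17, 6.74) went both ways. Those of *meis1b*, *meis2a*, *pbx1a* and *pknox2* involve the lowest concentration of a population and rest on that shared value.

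Regulators that act before the Hox genes were listed as Cdx factors, retinoic acid enzymes and receptors, hindbrain factors and *gdf11*. They had 51 of 121 peaks higher (42.1%), with a median of -1.29, which is close to the 44.7% and -1.19 over all peaks. *mafba*, a factor of the fifth and sixth rhombomeres that also acts in macrophages, had 13 of 26 peaks higher and a largest difference of -6.61. The retinoic acid receptor genes were divided: *rarga* had 9 of 14 higher, *rargb* 3 of 5, *raraa* 6 of 16 (largest difference 6.22) and *rarab* 4 of 15 (-4.86). *cyp26b1*, which breaks down retinoic acid, had 6 of 16 higher (largest 6.25, with *kdrl*:GFP- cells at their lowest concentration). Among the Cdx genes, which switch on Hox genes, *cdx1a* had 2 of 2 peaks higher. *cdx4*, needed in zebrafish for blood formation through Hox genes, had 1 of 3, with a difference of 7.49 against the lowest *kdrl*:GFP- concentration.

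The Hox genes have a sister group, the ParaHox genes, which are the Gsx, Pdx and Cdx genes. The Gsx genes had 19 peaks, none of them higher (*gsx1* 0 of 7, *gsx2* 0 of 12), with a median of -3.17, and *pdx1* had no peak. Of the Cdx genes counted above, *cdx1a* had 2 of 2 peaks higher and *cdx4* 1 of 3. Genes listed as neighbours of Hox clusters had 12 of 48 peaks higher (25.0%) and a median of -1.64, again beside 44.7% and -1.19 over all peaks. A peak counts for such a gene wherever it lies, and not every listed gene adjoins a Hox gene of the table. The share of higher peaks was larger for Hox genes (58.1%) than for each of these lists, and the difference was not tested.

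**Figure D5:**
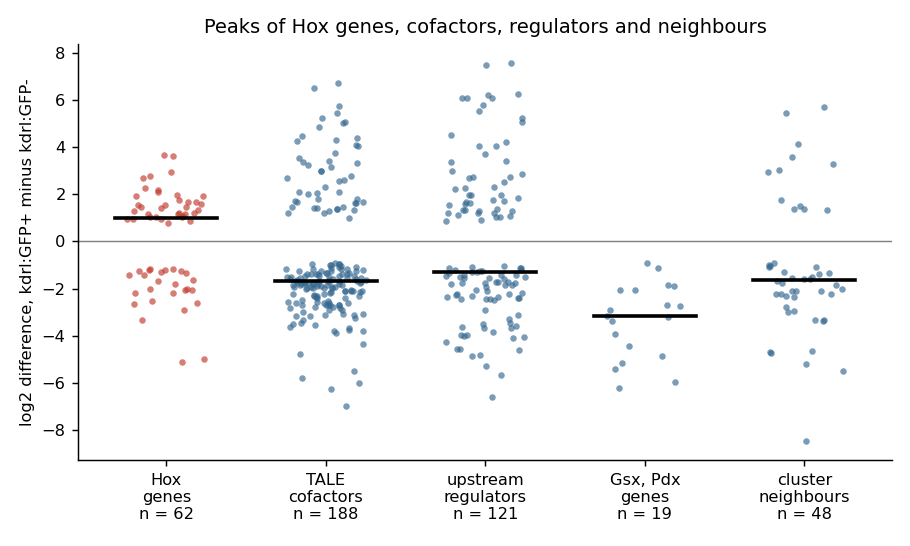
Log2 difference (vertical axis, *kdrl*:GFP+ minus *kdrl*:GFP-) of each differential peak of the Hox genes and of the listed cofactors, upstream regulators, Gsx and Pdx genes and cluster neighbours; points are peaks, spread sideways for visibility, and black bars are medians. The medians are 1.01, -1.66, -1.29, -3.17 and -1.64, and the Hox points span a narrower range, from -5.10 to 3.69, than the cofactors.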

How the data were processed

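According to the methods, the authors trimmed reads with Trimmomatic 0.32, mapped them with BWA 0.7.12 to the zebrafish assembly Zv9, called peaks for each library with genomic DNA as control, retained those shared by replicates and compared the populations with the edgeR method of DiffBind. HOMER gave annotations and the nearest promoter. Scaling, duplicate removal and transposase shift are not given in the sources used here. In the table the authors deposited, each population's value is a log2 mean of normalised reads. The authors' fold and p-value columns were not used. A second deposited table gives gene coordinates on Zv9, exon lengths, and a comparison of columns whose names begin with WT or Mo (a fold change, a mean and p-values). Of it, names, coordinates and lengths were used, and neither the comparison nor its 6 per-sample columns, which match no sample.

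Differences, counts, medians and Wilson intervals were computed in Python 3.11.15 (scipy 1.17.1, pandas 2.3.3, numpy 2.4.6; plots in matplotlib 3.10.9) and tested on simulated data. Distances run from the peak centre to the promoter start. All 62 symbols matched the RefSeq names of GRCz12tu, used for names only. Peaks named were those within 1 kb of a start or at a promoter, the extremes of each cluster, the 10 largest in each direction and every higher peak inside a cluster; others were named after their values were seen. Listed genes are given by counts, with the largest difference for the 10 with most peaks. The differences of *cdx4*, *snx10a*, *evx1* and *evx2* are given outside this rule. Members and lists were chosen with earlier results of these data known. Alternatives changed the distance limit, thresholds, class borders, cluster limits, weak or lowest-concentration peaks and merging; counting 3 microRNA-assigned peaks and leaving out *hoxc1a* or *hoxb1a* and centring on the median of all peaks were chosen after seeing the data.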

Additional observations from a re-analysis of the deposited data

How the results depend on the processing

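Of 56 alternative values, 50 stayed within the counting interval or 1.5 times the value given above, 6 moved beyond it and 0 reversed. Several of the 50 could not move. Current gene symbols matched the printed ones, and the alternative class borders left the posterior class as it was. Clusters without peaks at the lowest concentration, or without peaks beyond 100 kb, kept their share when such peaks were left out. Intervals of small groups were also wide, as for hoxbb (23.1 to 88.2), so staying within such an interval says little. Within 20 kb of a promoter the share of higher hoxda peaks was 100% in place of 57.1%, because its 5 *hoxd3a* peaks lie farther away. The limit of 8-fold (a log2 difference of 3) was passed by 2 and 3 Hox peaks in the higher and lower direction. At a log2 difference of 2 these were 8 (12.9%) and 13 (21.0%), where 28.9% and 29.3% of all peaks passed. At 3-fold they were 14 (22.6%) and 16 (25.8%), where 35.3% and 39.3% of all peaks passed. With 3 microRNA-assigned peaks inside the clusters counted, 37 of 65 were higher (56.9%). Leaving out *hoxc1a* gave 64.3% and leaving out *hoxb1a* 60.4%. With differences centred on their median over all peaks, the median of Hox peaks was 2.2 and 59.7% were higher. These 4 alternatives were chosen after seeing the data. No paired analysis was possible because the values are group means, and for the same reason no library could be left out. The unknown depth and scaling of the libraries limit every level and direction given here.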

Other observations

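Some peaks in or beside the clusters have another gene as nearest promoter. Inside hoxca, 2 peaks upstream of the microRNA gene *dre-mir-10b-2* had log2 differences of 1.18 (52.5 against 23.2 mean normalised reads in *kdrl*:GFP+ and *kdrl*:GFP- cells) and -2.77 (17.8 against 121 reads). Inside hoxba, a peak upstream of *mir10c* had a difference of -0.87 (126 against 229 reads). The even-skipped family, whose genes sit at the posterior end of Hox clusters, was divided. A peak in exon 1 of *evx2*, beside hoxda, had 49.5 against 2.81 reads (chr9:1993768-1994234, 4.14), a larger positive difference than that of any Hox peak. The promoter peak of *eve1* beside hoxba had 21.5 against 44.3 reads (-1.04), and a peak at *evx1* beside hoxaa had 13.6 against 38.9 reads (-1.52). Among other genes listed as cluster neighbours, *snx10a* had 5 of 5 peaks higher and *snx10b* 1 of 11, and the largest difference of *snx10a* (5.70) lay far from the hoxaa cluster, at chr19:20244725-20245126, where that cluster ends at 19253164.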
